A study of Homo sapiens with 12 samples.

Results

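Aldo-keto reductases are soluble enzymes that use NADPH to reduce aldehydes and ketones to alcohols, and they act on steroids, prostaglandins, retinal, sugars, lipid peroxidation products and drugs. The AKR1C enzymes reduce ketosteroids and prostaglandins, the AKR1B enzymes and AKR1A1 reduce sugars and reactive aldehydes, and AKR7A2 reduces dialdehydes and succinic semialdehyde. Several AKR1C genes and AKR1B10 are known targets of the transcription factor NRF2, which is held low by its inhibitor KEAP1 and responds to electrophiles and oxidants. The 7 genes described here, AKR1C1, AKR1C2, AKR1C3, AKR1B1, AKR1B10, AKR1A1 and AKR7A2, were taken by gene symbol out of 59324 genes in the table, and all 7 were found and passed the filter on low values.

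RNA sequencing measured them in MDA-MB-468, an established human breast cancer line of the triple-negative type. The 12 libraries formed 4 groups of 3. Control cells received neither drug, SAHA cells received 10 µM SAHA (vorinostat, an inhibitor of zinc-dependent histone deacetylases) for 12 h, sonidegib cells received 10 µM sonidegib (an inhibitor of the Hedgehog signal transducer SMO) for 72 h, and the combination group received SAHA after sonidegib. The labels do not give the time control cells were kept, whether sonidegib stayed on during the 12 h with SAHA, or whether replicate libraries stem from separate cultures. The p-values therefore cover only library-to-library spread, which may be technical. All groups share a single cell line, so nothing here speaks for other cells.

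Levels are given as TPM, a gene's share of all transcripts corrected for transcript length. The depth of the libraries is unknown, since TPM keep no counts. In bulk libraries of fixed total, a change in the number of cells with a transcript, in RNA per cell or in the rest of the RNA cannot be told apart. The ribosomal 5S RNA genes summed to 0 TPM in all 6 libraries without sonidegib and to 1488 to 12641 TPM in the 6 with it, and mitochondrial ribosomal RNA made up 0.565% to 1.35% of TPM without sonidegib and 2.06% to 2.86% with it. Any difference in preparation between these sets cannot be told apart from sonidegib. Comparisons of SAHA with control and of the combination with sonidegib stay within a set. All 7 epithelial and breast cancer line markers, such as KRT8, KRT18 and EGFR, were above 1 TPM in every group. Their sum was 8745 to 9640 TPM in control, 9988 to 10448 with SAHA, 5274 to 5674 with sonidegib and 5197 to 5361 in the combination, and its part in the results was not tested. The keratins KRT19, KRT8 and KRT18 averaged 4248, 1864 and 1458 TPM in control and 2528, 865 and 739 with sonidegib. EGFR averaged 623 TPM in control and 658 with sonidegib, and CDH1 20.8 and 23.9. With sonidegib 5 of the 7 were called lower and 0 higher, where 29.2% of all tested genes were lower and 26.1% higher. PGR was listed at 0. The estrogen receptor gene ESR1 averaged at most 1.14 TPM. The third receptor gene, ERBB2, averaged 10.4 TPM in control, 3.94 with SAHA, 24.4 with sonidegib and 6.48 in the combination. Hepatocyte markers summed to at most 1.04 TPM in any library. Of 6 leukocyte markers only CD14 and CD68 reached 1 TPM, and the defining marker PTPRC averaged 0.00333 TPM in every group. The leukocyte markers summed to 301 to 326 TPM in control, 310 to 346 with SAHA, 312 to 323 with sonidegib and 217 to 232 in the combination. In the same order of groups CD14 averaged 309, 316, 305 and 215 TPM and CD68 4.21, 10.2, 11.3 and 9.51 TPM. The 6 fibroblast and endothelial markers summed to 3.48 to 4.81 TPM in control, 10.99 to 13.8 with SAHA, 5.18 to 8.12 with sonidegib and 9.97 to 10.4 in the combination, with only 1 of them at 1 TPM or more.

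The AKR1C genes lie side by side on chromosome 10 (GRCh38, GENCODE 29): AKR1C1 at 4963253 to 4983283 on the plus strand, AKR1C2 at 4987400 to 5018031 on the minus strand and AKR1C3 at 5035354 to 5107686 on the plus strand. AKR1B1 (134442350 to 134459284, minus strand) and AKR1B10 (134527592 to 134541408, plus strand) lie on chromosome 7. AKR1A1 (45550543 to 45570049, plus strand) and AKR7A2 (19303965 to 19312146, minus strand) lie on chromosome 1. RefSeq promoters (GRCh38.p14) were given for 6 of the 7 genes. The 200 bases before the transcription start are shown for the AKR1C genes, which moved together, and for AKR7A2, which moved the other way after sonidegib. The starts used for AKR1C2 and AKR1C3 lie well inside the gene limits given above. Which start these cells use is unknown. Capitals mark matches on either strand to 6 motifs: the core of the antioxidant response element bound by NRF2 (TGACNNNGC), the AP-1 site (TGANTCA), the CHOP/ATF4 element (TGATGNAA), the GC box (GGGCGG), the CCAAT box (CCAAT) and the TATA box (TATAAA).
AKR1C1, chr10:4963215-4963414, plus strand: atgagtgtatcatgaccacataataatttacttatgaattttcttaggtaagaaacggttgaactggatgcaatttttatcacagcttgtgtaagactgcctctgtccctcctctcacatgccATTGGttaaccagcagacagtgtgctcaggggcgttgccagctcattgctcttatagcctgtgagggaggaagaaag
AKR1C2, chr10:5003858-5004057, minus strand: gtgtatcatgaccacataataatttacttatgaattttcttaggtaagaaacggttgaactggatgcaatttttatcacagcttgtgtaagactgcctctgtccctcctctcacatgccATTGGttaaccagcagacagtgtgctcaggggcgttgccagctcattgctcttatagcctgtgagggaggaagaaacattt
AKR1C3, chr10:5048581-5048780, plus strand: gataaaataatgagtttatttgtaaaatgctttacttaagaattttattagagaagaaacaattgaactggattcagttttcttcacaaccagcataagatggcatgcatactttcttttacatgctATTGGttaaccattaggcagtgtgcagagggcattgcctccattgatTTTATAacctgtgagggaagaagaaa
AKR7A2, chr1:19312147-19312346, minus strand: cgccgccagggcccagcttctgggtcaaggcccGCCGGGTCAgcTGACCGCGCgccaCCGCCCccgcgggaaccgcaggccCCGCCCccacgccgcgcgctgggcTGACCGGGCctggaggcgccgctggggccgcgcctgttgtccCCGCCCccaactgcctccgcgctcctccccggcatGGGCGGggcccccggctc

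The AKR1C1 and AKR1C2 promoters were nearly the same sequence, with 245 of 246 aligned bases identical over the 250 bases before the start. AKR1C3 has 2 RefSeq starts. The one shown shared 76.8% of aligned bases with AKR1C1 and the other 79.1%. All of these AKR1C promoters held a CCAAT box on the minus strand (ATTGG), between 69 and 86 bases before the start, and the AKR1C3 start shown also held a TATA box match on the minus strand. In the window of 300 bases, 250 before and 50 after the start, a CCAAT box was present in 34.6% of 35116 RefSeq promoters, a TATA box in 11.5%, a GC box in 45.0%, an antioxidant response core in 13.3%, an AP-1 site in 7.71% and a CHOP/ATF4 element in 3.62%. AKR7A2 held 3 antioxidant response cores and 4 GC boxes, the AKR1C promoters held neither, AKR1A1 held 2 GC boxes, and AKR1B1 held GC boxes and a CCAAT box at both of its starts. No match overlapped another. These are matches of letters in a short window, and nothing follows from them about the factors.

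The transcripts of these genes share sequence, which bears on how reads were divided. Of all windows of 50 bases in the protein-coding GENCODE transcripts of AKR1C2, 47.0% also occurred in AKR1C1, and 26.6% of those of AKR1C1 occurred in AKR1C2. AKR1C3 shared 7.61% of its windows with AKR1C2 and 6.08% with AKR1C1, and AKR1B10 shared 11.6% with its neighbour AKR1B15. AKR1A1 shared none with any other gene. Values of AKR1C1 and AKR1C2 are therefore uncertain relative to each other, and their sum is given beside them.

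In control cells AKR1C2 and AKR1C1 were the most abundant members and AKR1B10 the least. By mean TPM the order was AKR1C2 (752), AKR1C1 (567), AKR1A1 (115), AKR1B1 (60.1), AKR7A2 (43.1), AKR1C3 (35.1) and AKR1B10 (12.0), and no neighbours in this order overlapped between libraries. After sonidegib the 3 AKR1C genes held the top places, with AKR1C1 first at 2616 TPM, the 70th highest mean of all genes in the table. In the combination the ranges of AKR1C1 and AKR1C2 overlapped between libraries. Within each combination library AKR1C1 was the higher of the pair (ratios 1.08, 1.06 and 1.08). The division of shared reads leaves this order uncertain.

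**Figure D1:**
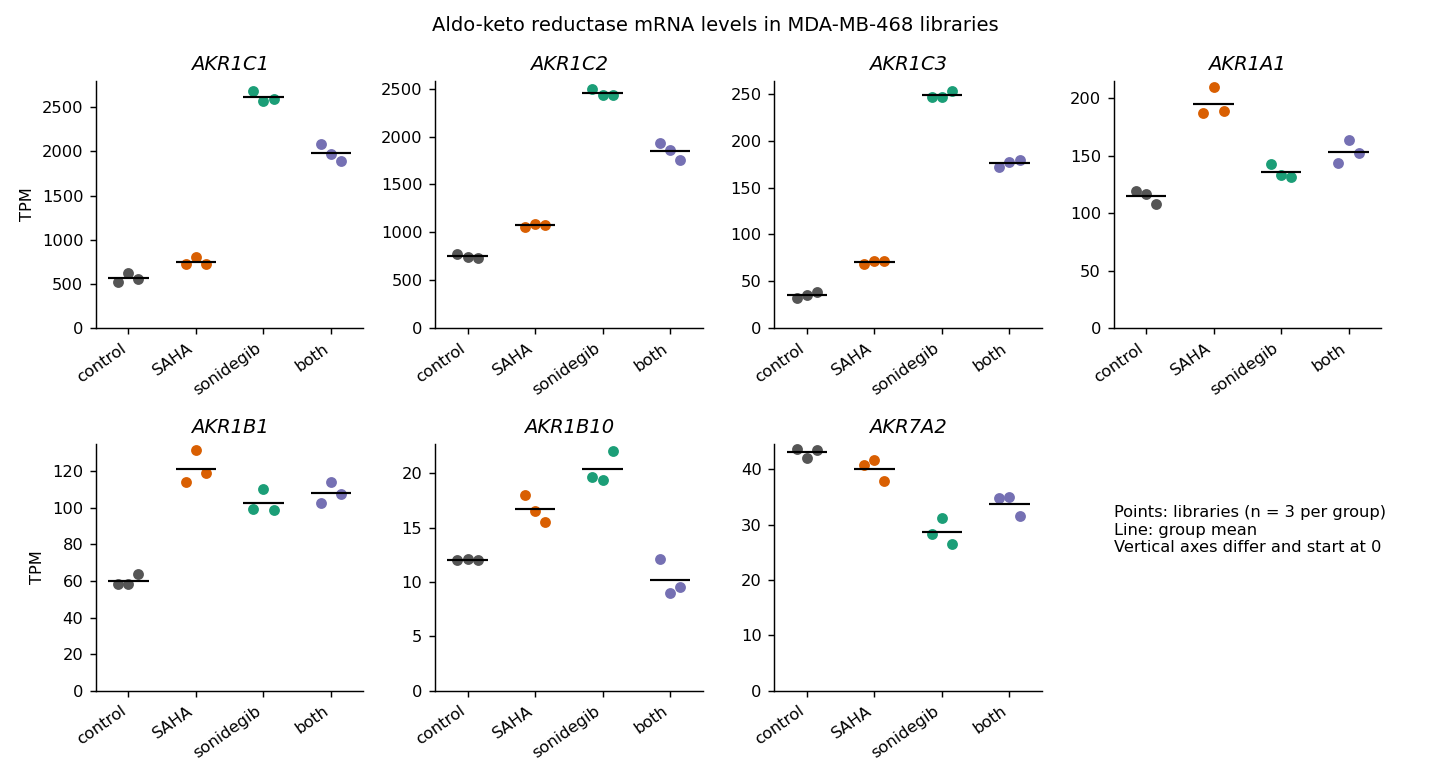
TPM of each aldo-keto reductase gene in every library (points, 3 per group) with the group mean (line), on separate vertical axes that start at 0; "both" is the combination. By group mean, the AKR1C genes are highest with sonidegib and lower in the combination, and AKR1A1 and AKR1B1 are highest with SAHA. AKR1B10 has its lowest mean in the combination, where the libraries overlap control, and AKR7A2 has its lowest mean with sonidegib.

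AKR1C3 makes testosterone from androstenedione and reduces prostaglandins. It was at 32.1, 35.2 and 38.0 TPM in the control libraries, 68.9, 71.7 and 71.8 with SAHA, 247, 247 and 253 with sonidegib and 173, 178 and 180 in the combination. The 4 groups did not overlap, and sonidegib gave the highest libraries. Sonidegib raised the mean 7.09-fold over control (log2 change of TPM + 1 of 2.79 ± 0.057, standard error (SE) from limma, adjusted p = 3.03e-10), and AKR1C3 had the smallest p-value of all 13937 genes tested in that comparison. SAHA alone raised it 2.02-fold (0.99 ± 0.057, adjusted p = 6.22e-08). In cells given sonidegib, SAHA moved it the other way, to 0.710 of the level with sonidegib alone (-0.49 ± 0.057, adjusted p = 5.67e-05).

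AKR1C1 reduces progesterone to a less active steroid. It stood at 522, 629 and 550 TPM in control, 725, 799 and 724 with SAHA, 2687, 2569 and 2591 with sonidegib and 2087, 1975 and 1894 in the combination. Again no groups overlapped and the sonidegib libraries were highest. The rise with sonidegib was 4.62-fold (2.21 ± 0.068, adjusted p = 2.26e-09) and that with SAHA 1.32-fold (0.41 ± 0.068, adjusted p = 0.000335). The combination was at 0.759 of sonidegib alone (-0.40 ± 0.068, adjusted p = 0.000838).

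AKR1C2 inactivates dihydrotestosterone. Its libraries read 778, 743 and 736 TPM in control, 1050, 1089 and 1078 with SAHA, 2492, 2432 and 2438 with sonidegib and 1929, 1863 and 1758 in the combination. The order of the groups was that of AKR1C1 and AKR1C3, without overlap. It rose 3.26-fold with sonidegib (1.70 ± 0.042, adjusted p = 5.48e-10) and 1.43-fold with SAHA (0.51 ± 0.042, adjusted p = 9.89e-07), and fell to 0.754 of the sonidegib level when SAHA followed (-0.41 ± 0.042, adjusted p = 2.30e-05).

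The 3 AKR1C genes together made up 0.135% ± 0.00461 of all TPM in control (SD, n = 3), 0.189% ± 0.00603 with SAHA, 0.532% ± 0.00944 with sonidegib and 0.401% ± 0.0178 in the combination. The sum of AKR1C1 and AKR1C2, which still depends on the division of shared reads because the transcripts differ in length, was 1319 ± 46.4 TPM in control, 1822 ± 59.2 with SAHA, 5070 ± 95.3 with sonidegib and 3835 ± 182 in the combination. The balance between the pair also differed. The ratio of AKR1C1 to AKR1C2 was 0.671, 0.846 and 0.747 in the control libraries and 0.691, 0.734 and 0.671 with SAHA. It was 1.08, 1.06 and 1.06 with sonidegib and 1.08, 1.06 and 1.08 in the combination. All 6 libraries with sonidegib thus had more AKR1C1 than AKR1C2 and all 6 without it had less. The division of shared reads cannot be told apart from a change of the transcripts in this ratio. AKR1C3 per AKR1C2 averaged 0.0468 ± 0.0052 over the control libraries, 0.0660 ± 0.000519 after SAHA, 0.102 ± 0.00222 after sonidegib and 0.0957 ± 0.00634 after both.

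**Figure D2:**
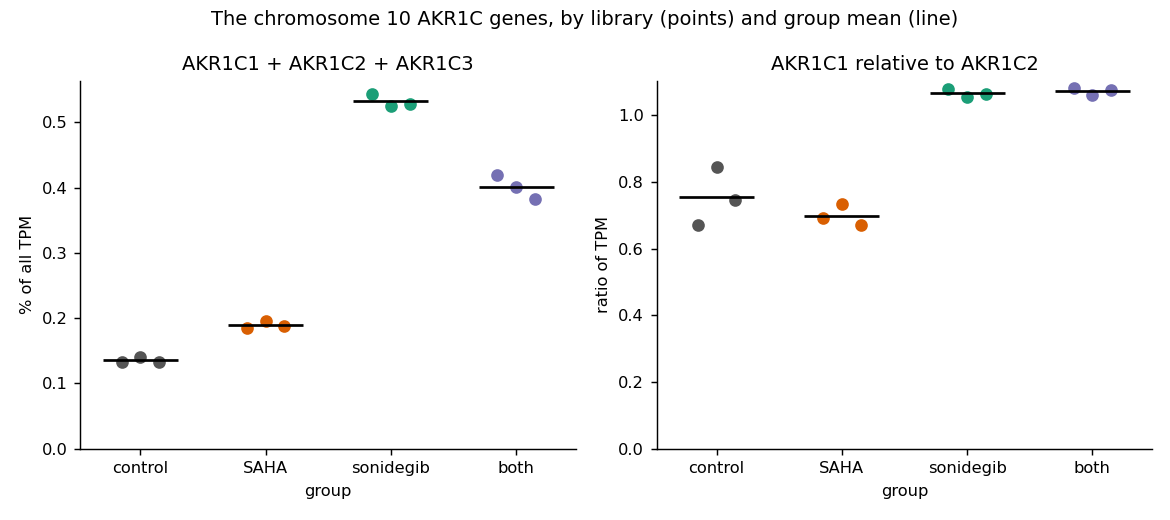
Left, the summed TPM of AKR1C1, AKR1C2 and AKR1C3 as a percentage of all TPM; right, the ratio of AKR1C1 to AKR1C2 TPM; points are libraries, lines group means, both vertical axes start at 0, and "both" is the combination. The share rises from 0.135% in control to 0.532% with sonidegib, and the ratio lies above 1 in the libraries with sonidegib and below 1 in those without.

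AKR1B1, aldose reductase, turns glucose into sorbitol in the first step of the polyol pathway. It was at 58.3, 58.3 and 63.8 TPM in control, 114, 131 and 119 with SAHA, 99.2, 111 and 99.0 with sonidegib and 103, 114 and 108 in the combination. Every treated library lay above every control library, and the combination overlapped both single drugs. SAHA raised AKR1B1 2.02-fold (1.001 ± 0.070, adjusted p = 2.97e-07) and sonidegib 1.71-fold (0.76 ± 0.070, adjusted p = 3.65e-06). Added to sonidegib, SAHA gave a log2 change of 0.07 with a 95% interval of -0.08 to 0.23 (adjusted p = 0.454), which did not pass the test. SORD, the enzyme that oxidises sorbitol in the next step, passed the test in no comparison (13.6 ± 1.61 TPM in control and 15.8 ± 0.735 with sonidegib).

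AKR1B10 reduces retinal and lipid-derived aldehydes. It was at 12.0, 12.1 and 12.1 TPM in control, 18.0, 16.5 and 15.5 with SAHA, 19.7, 19.4 and 22.1 with sonidegib and 12.1, 8.97 and 9.51 in the combination. Each single drug placed all libraries above control, while the combination was lower than either drug and overlapped control. It rose 1.39-fold with SAHA (0.44 ± 0.10, adjusted p = 0.00319) and 1.69-fold with sonidegib (0.71 ± 0.10, adjusted p = 0.000123). In cells given sonidegib, SAHA brought it down to 0.5005 of the sonidegib level (-0.94 ± 0.10, adjusted p = 3.60e-05). Against control the combination did not pass the test (-0.23 ± 0.10, adjusted p = 0.0684), but without combination replicate 1 it did (-0.35, adjusted p = 0.00463). AKR1B15, the neighbour that shares sequence with it, was at 13.4 ± 1.24 TPM in control, 14.9 ± 1.19 with SAHA, 25.8 ± 2.56 with sonidegib and 11.1 ± 0.915 in the combination. AKR1B15 rose with sonidegib (0.90 ± 0.098, adjusted p = 1.50e-05) and fell when SAHA followed (-1.14 ± 0.098, adjusted p = 6.94e-06). The sum of AKR1B10 and AKR1B15 was 25.4 ± 1.24 TPM in control, 31.6 ± 1.18 with SAHA, 46.1 ± 3.9 with sonidegib and 21.3 ± 1.04 in the combination.

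AKR1A1 is the broadly expressed aldehyde reductase. It was at 120, 117 and 108 TPM in control, 187, 210 and 189 with SAHA, 143, 133 and 132 with sonidegib and 144, 163 and 152 in the combination. No groups overlapped, and SAHA alone gave the highest values. SAHA raised it 1.70-fold (0.76 ± 0.066, adjusted p = 1.73e-06) and sonidegib 1.18-fold (0.24 ± 0.066, adjusted p = 0.00884). SAHA after sonidegib gave 1.13-fold (0.17 ± 0.066, adjusted p = 0.0618), which did not pass the test. It passed without the ribosomal and mitochondrial RNAs (0.20, adjusted p = 0.0284), with the replicate number as a block (adjusted p = 0.0484), without SAHA replicate 2 (adjusted p = 0.0446) and without combination replicate 1 (0.21, adjusted p = 0.0367).

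AKR7A2, which reduces aflatoxin dialdehyde and succinic semialdehyde, was the member that went down. It was at 43.8, 42.1 and 43.5 TPM in control, 40.9, 41.7 and 37.8 with SAHA, 28.4, 31.3 and 26.5 with sonidegib and 34.8, 35.1 and 31.6 in the combination. Sonidegib lowered it to 0.666 of control without overlap (-0.57 ± 0.071, adjusted p = 3.83e-05). With SAHA alone the libraries were all below control but the difference did not pass the test (-0.10, 95% interval -0.26 to 0.05, adjusted p = 0.243). SAHA after sonidegib raised it 1.18-fold (0.23 ± 0.071, adjusted p = 0.0238), a call lost under median-of-ratios scaling, quantile normalization, a fit of these groups alone, and without sonidegib replicate 1, sonidegib replicate 3, combination replicate 1 or combination replicate 2 in turn, with adjusted p between 0.0526 and 0.0905.

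Counted over the 7 members, SAHA against control called 6 higher and 0 lower, where 31.8% of the 13937 tested genes were called higher and 26.9% lower (58.7% in all). The members' median log2 change was 0.51 and that of all tested genes 0.05. Sonidegib against control called 6 higher and 1 lower, against 26.1% and 29.2% of all genes (55.3% in all), with a median of 0.76 and of -0.02 for all genes. More of the tested genes were called than not with each drug, and a call by itself does not set a member apart. By size, AKR1C3, AKR1C1 and AKR1C2 had the 28th, 58th and 167th highest log2 changes with sonidegib, AKR1B1 the 1514th, AKR1B10 the 1709th and AKR1A1 the 4529th. With SAHA the highest-ranked members were AKR1B1 and AKR1C3, at places 1295 and 1316.

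The combination against control called 5 members higher and 1 lower, where 29.7% of tested genes were higher and 34.0% lower (63.7% in all). AKR1C3 was 5.03-fold, AKR1C1 3.50-fold, AKR1C2 2.46-fold, AKR1B1 1.80-fold and AKR1A1 1.33-fold above control, and AKR7A2 was at 0.784 of control (adjusted p between 1.45e-10 and 0.00127 over these 6). These comparisons with control share the control libraries.

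SAHA in cells already given sonidegib lowered 4 members, AKR1C1, AKR1C2, AKR1C3 and AKR1B10, and raised AKR7A2, where 17.5% of tested genes were called higher and 21.0% lower (38.5% in all). The members' median was -0.40 and that of all genes -0.02. In the combination against SAHA, AKR1C1 was 2.65-fold, AKR1C3 2.50-fold and AKR1C2 1.73-fold higher (adjusted p between 3.12e-08 and 9.33e-08). In the same comparison AKR1B10 fell to 0.611, AKR1A1 to 0.785 and AKR7A2 to 0.842 of the SAHA level (adjusted p = 0.000225, 0.00104 and 0.0143), where 18.0% of tested genes were higher and 33.0% lower (50.9% in all). The median of all genes here was -0.12, and median-of-ratios scaling moved it by 0.12, to 0, and balanced the calls at 25.8% higher and 26.1% lower. Under that scaling and under quantile normalization AKR1A1 (adjusted p = 0.0822 and 0.0881) and AKR7A2 (adjusted p = 0.389 and 0.421) were no longer called, whereas the AKR1C rises and the AKR1B10 fall were. AKR7A2 also missed without combination replicate 3 (adjusted p = 0.0516).

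**Figure D3:**
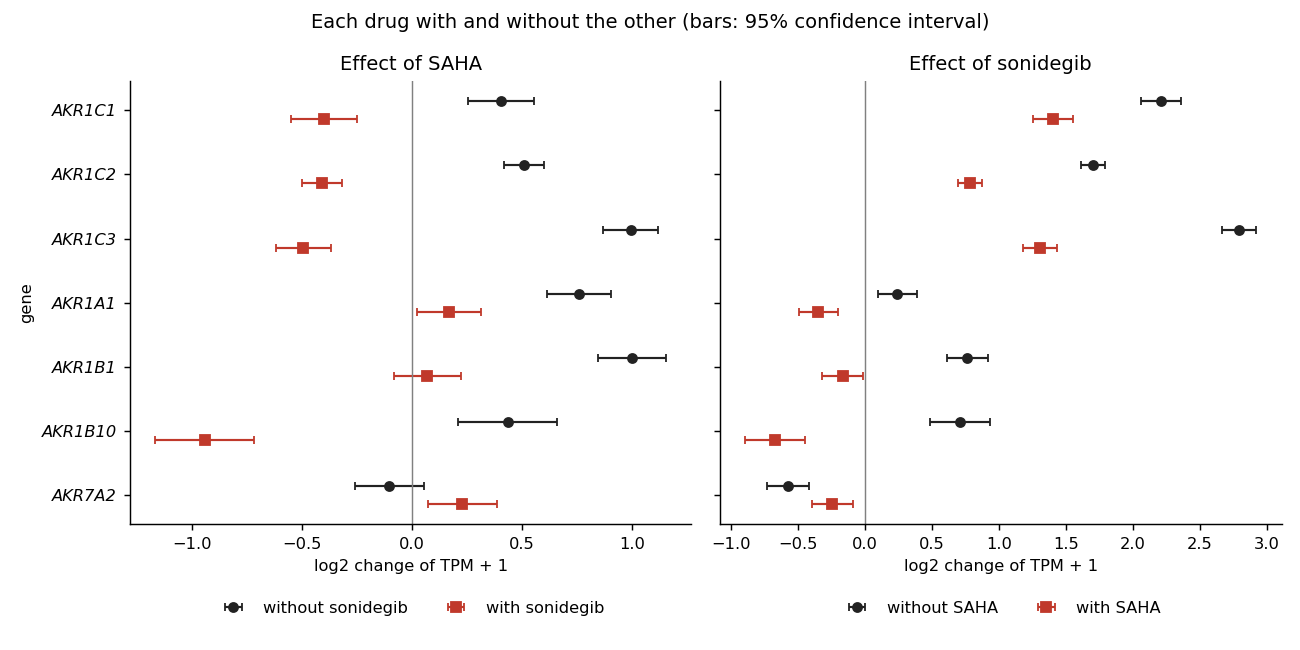
Log2 change of TPM + 1 (points) with its 95% confidence interval (bars) for each gene; left, SAHA without sonidegib (circles) and with it (squares); right, sonidegib without SAHA (circles) and with it (squares). The SAHA effect on AKR1C1, AKR1C2, AKR1C3 and AKR1B10 lies above 0 without sonidegib and below 0 with it, and the sonidegib effect is smaller or more negative with SAHA for 6 of the 7 genes.

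Whether SAHA acted differently with sonidegib was tested directly by the interaction, the log2 change of combination minus sonidegib minus SAHA plus control. All 7 members passed, 6 of them lower than the sum of the single-drug changes and AKR7A2 higher, where 11.8% of tested genes were higher and 19.7% lower (31.4% in all). The members' median was -0.92 and that of all genes -0.07. The deficits were -1.49 ± 0.081 for AKR1C3 (adjusted p = 6.78e-07), -1.38 ± 0.14 for AKR1B10 (4.20e-05 adjusted), -0.93 ± 0.099 for AKR1B1 (4.57e-05 adjusted), -0.92 ± 0.059 for AKR1C2 (1.53e-06 adjusted), -0.80 ± 0.097 for AKR1C1 (0.000109 adjusted) and -0.59 ± 0.093 for AKR1A1 (0.000694 adjusted). In levels, adding the single-drug log2 changes would place AKR1C3 at 497 TPM, where 177 was measured, AKR1C1 at 3464, where 1985 was measured, and AKR1B10 at 27.9, where 10.2 was measured. AKR7A2 was above the sum by 0.33 ± 0.10 (adjusted p = 0.0267). That call was lost without control replicate 1, SAHA replicate 3, sonidegib replicate 1, sonidegib replicate 3, combination replicate 1 or combination replicate 2 in turn, with adjusted p between 0.0534 and 0.0633.

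The interaction sets the SAHA difference within the libraries with 5S ribosomal RNA against that within the libraries without it. A log2 shift shared by both groups of a set cancels in it, and whether the sets differ in a way that alters the SAHA difference was not tested. With ribosomal and mitochondrial genome RNAs removed and the rest rescaled, the interaction was -1.51 for AKR1C3, -1.41 for AKR1B10, -0.96 for AKR1B1, -0.95 for AKR1C2, -0.83 for AKR1C1, -0.62 for AKR1A1 and 0.31 for AKR7A2, and all 7 remained called. The sonidegib change was 2.83 for AKR1C3, 2.24 for AKR1C1 and 1.73 for AKR1C2 after the same removal. Median-of-ratios scaling moved the median interaction of all genes by 0.10, to 0.03, and turned the balance of calls to 18.5% higher and 16.2% lower, while 6 members stayed lower and 1 higher.

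**Figure D4:**
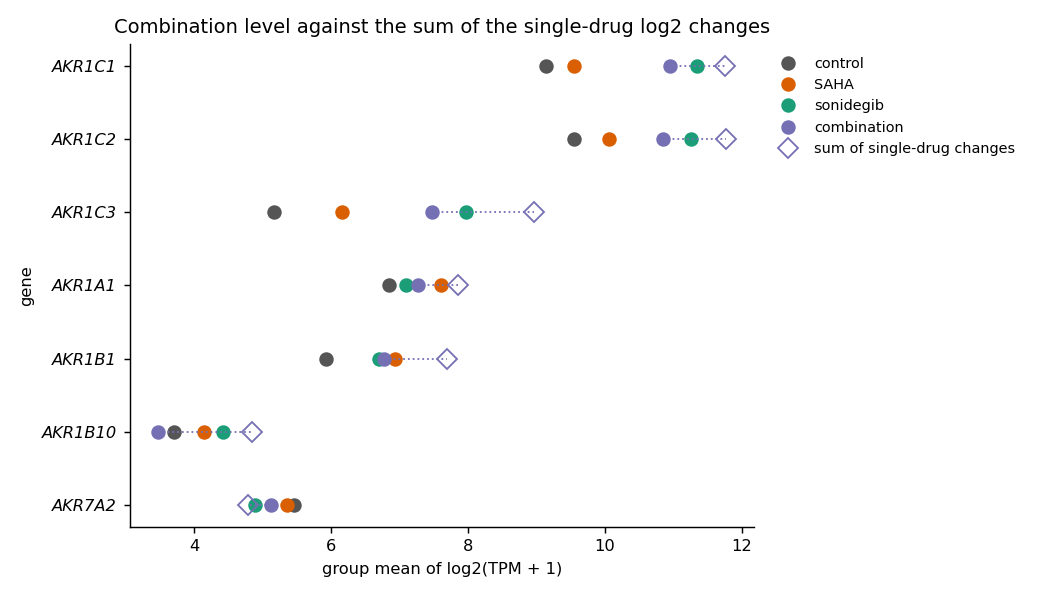
Group means of log2(TPM + 1) for each gene (filled points) and the level that the sum of the single-drug log2 changes would give for the combination (open diamonds), joined to the measured combination by a dotted line. For 6 genes the measured combination lies to the left of the diamond, by 0.59 (AKR1A1) to 1.49 (AKR1C3), and for AKR7A2 to its right by 0.33.

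NRF2 itself, NFE2L2, was at 73.8 ± 6.65 TPM in control and 74.5 ± 4.49 with sonidegib (adjusted p = 0.924), and fell with SAHA alone to 56.7 ± 8.48 (-0.38 ± 0.12, adjusted p = 0.0143). KEAP1, which targets NRF2 for degradation, fell from 125 ± 5.99 TPM to 45.2 ± 3.01 with SAHA (-1.44 ± 0.070, adjusted p = 1.70e-08), to 83.1 ± 5.7 with sonidegib (-0.58 ± 0.070, adjusted p = 2.98e-05) and to 38.0 ± 1.83 in the combination (-1.69 ± 0.070, adjusted p = 4.02e-09).

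Of the 8 genes of NRF2 and its control, SAHA raised 4 and lowered 3 and sonidegib raised 3 and lowered 3, where 31.8% of all tested genes rose and 26.9% fell with SAHA and 26.1% rose and 29.2% fell with sonidegib. The same shares stand behind the later list counts for SAHA or sonidegib against control, without rescaling. Of 29 other NRF2 targets 26 were tested. SAHA raised 18 and lowered 2, with a median of 0.47, and sonidegib raised 21 and lowered 1, with a median of 0.55. The combination raised 20 and lowered 3 against control, with a median of 0.47. In that comparison 29.7% of all tested genes rose and 34.0% fell, with a median of -0.02. OSGIN1, a growth inhibitor induced by oxidants, rose from 4.12 ± 0.07 TPM to 13.2 ± 0.406 with SAHA (1.47) and to 17.9 ± 2.07 with sonidegib (1.88). GCLM, a subunit of the enzyme that makes the glutathione precursor, rose by 0.98 and 0.96, TXNRD1, thioredoxin reductase, by 0.98 and 0.96, and SRXN1, sulfiredoxin, by 1.36 and 1.30. TRIM16L rose more with sonidegib (1.69) than with SAHA (0.62), a difference that was not tested. HMOX1, heme oxygenase, rose with SAHA (1.11 ± 0.070) and did not pass with sonidegib (0.15, adjusted p = 0.10). NQO1, a quinone reductase often used to read NRF2 activity, rose by 0.17 with sonidegib, from 207 ± 3.62 to 234 ± 13.1 TPM, had a change of -0.02 with SAHA (adjusted p = 0.772) and fell by 0.23 in the combination. AKR1C3, AKR1C1 and AKR1C2 had changes of 2.79, 2.21 and 1.70 with sonidegib, and of the other targets only OSGIN1 exceeded the lowest of these.

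With SAHA after sonidegib 6 of the 26 rose and 6 fell (median -0.12), against 17.5% and 21.0% of all tested genes (median -0.02). TXNRD1 (0.32), SRXN1 (0.36) and HMOX1 (0.34) were among the rises and TRIM16L (-0.79), CBR3 (-1.15) and NQO1 (-0.40) among the falls. In the interaction 20 were lower and 1 higher (median -0.55), against 19.7% and 11.8% of all tested genes (median -0.07). The lower ones were led by OSGIN1 (-1.57), TRIM16L (-1.41) and GCLM (-1.28). Under median-of-ratios scaling 15 were lower and 1 higher, against 16.2% and 18.5% of all tested genes. In the combination against SAHA 10 rose and 8 fell (median -0.06), against 18.0% and 33.0% of all tested genes (median -0.12). Under median-of-ratios scaling 10 rose and 4 fell (median 0.07), against 25.8% and 26.1% of all tested genes (median 0).

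**Figure D5:**
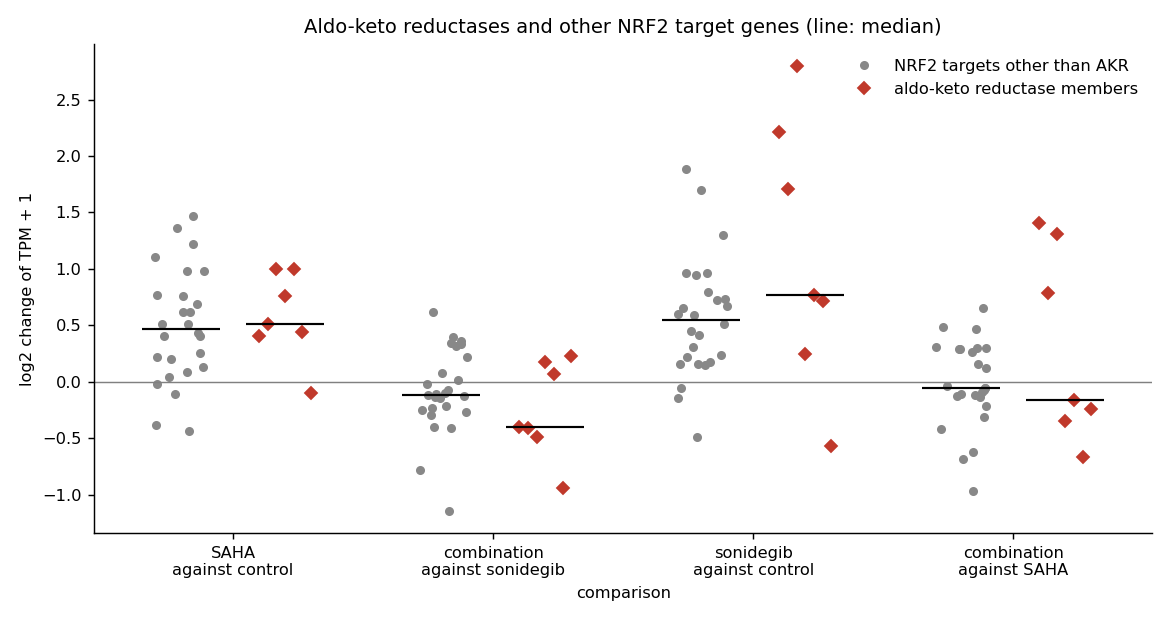
Log2 change of TPM + 1 for 26 NRF2 targets other than aldo-keto reductases (grey circles) and the 7 aldo-keto reductases (red diamonds) in 4 comparisons, with medians as lines. Both sets lie mostly above 0 for each drug against control, and 3 diamonds, the AKR1C genes, stand at 1.70 to 2.79 for sonidegib against control.

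Other genes of the superfamily were mostly silent in these cells. Of 10 that were found, 3 passed the filter on low values. AKR1C4, the liver enzyme of the same cluster, averaged 0.02 TPM in control and was listed at 0 in every treated library, and AKR1D1, the bile acid enzyme, averaged at most 0.0233 TPM in any group. AKR7A3 and AKR7L, the closest relatives of AKR7A2, averaged at most 0.117 and 0.0933 TPM. AKR1E2 was at 2.86 ± 0.777 TPM in control and passed the test in no comparison. KCNAB2, a potassium channel beta subunit built on the same fold, rose from 0.82 ± 0.0265 TPM to 5.69 ± 0.645 with SAHA (1.87 ± 0.11, adjusted p = 8.78e-08), 3.02 ± 0.331 with sonidegib (1.14 ± 0.11, adjusted p = 6.54e-06) and 6.24 ± 0.512 in the combination (1.99 ± 0.11, adjusted p = 4.23e-08). KCNAB1 and KCNAB3 averaged at most 0.217 and 0.25 TPM.

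Of 23 tested genes of other carbonyl reductases and aldehyde dehydrogenases, sonidegib raised 12 and lowered 3 (median 0.30) and SAHA raised 10 and lowered 7 (median 0.03, or -0.06 under median-of-ratios scaling and -0.02 under quantile normalization). The carbonyl reductase CBR1 rose with SAHA (0.77) and sonidegib (0.30), DCXR, which reduces xylulose, by 0.76 and 0.72, and the fatty aldehyde dehydrogenase ALDH3A2 by 0.71 and 1.04. ALDH16A1 fell by 1.73 with SAHA and by 0.68 with sonidegib. In the interaction 12 were lower and 1, ALDH16A1, higher, where 19.7% of all tested genes were lower and 11.8% higher.

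Among 17 tested genes of steroid metabolism, sonidegib raised 10 and lowered 3 (median 0.39), while SAHA raised 4 and lowered 6 (median -0.07). The SAHA count of 10 of 17 is near the 58.7% called over all tested genes. CYP1B1, which hydroxylates estrogens, rose from 30.5 ± 4.7 to 82.6 ± 6.54 TPM with sonidegib (1.42). HSD17B2, which oxidises estradiol and testosterone, rose with sonidegib (0.45) and fell with SAHA, from 21.7 ± 1.25 to 8.67 ± 1.47 TPM (-1.24), and in the combination to 8.13 ± 0.268 TPM. SAHA after sonidegib lowered 9 of the 17 and raised 1, HSD17B10, where 21.0% of all tested genes fell and 17.5% rose.

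Of 10 tested genes of prostaglandin metabolism, sonidegib raised 5 and lowered 2 and SAHA raised 3 and lowered 4, where 55.3% and 58.7% of all tested genes were called. The cyclooxygenase PTGS2 was listed at 0 in all libraries, and PTGS1 rose with SAHA, from a mean of 0.517 to 1.97 TPM (0.97). PTGES, which makes prostaglandin E, fell from 91.6 ± 3.86 TPM to 50.4 ± 3.09 in the combination (-0.85). Of 6 tested genes of the osmotic response, to which AKR1B1 belongs, SAHA raised 3 and sonidegib 2, and none fell with either. Neither count exceeds the share called over all tested genes, 58.7% with SAHA and 55.3% with sonidegib. The taurine transporter SLC6A6 rose by 0.61 with SAHA and by 0.59 with sonidegib. Under median-of-ratios scaling and under quantile normalization SAHA raised 2 of the 6 and lowered 2. Over all tested genes 28.5% rose and 31.6% fell under the former, and 29.4% rose and 30.6% fell under the latter.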

How the data were processed

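The deposited table held TPM of 59324 genes in 12 columns, rounded to 2 decimals. Each column summed to between 999999 and 1000001 TPM, so the authors had scaled over all genes. Bowtie2 2.4.1 and GRCh38 are named per the submitters' processing notes. The quantifier, annotation, strand and library selection are not given in the sources used here. No columns were identical. Groups and replicate numbers came from the labels.

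The log2(TPM + 1) values were computed here and fitted in limma 3.58.1 under R 4.3.3. A filter kept the 13937 genes whose mean over all libraries reached 1 TPM, in 1 model of 4 group means with 8 residual degrees of freedom and an intensity trend. Tests were two-sided, with Benjamini-Hochberg adjustment over all tested genes within each of 6 comparisons, and calls were made below an adjusted p of 0.05. SE and 95% intervals are limma's. Fold changes are of mean TPM.

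Named were all members, other superfamily genes, for each list and comparison at most the 2 largest rises and the 2 largest falls, preset NRF2 genes and SORD. The 4 protein-coding genes of at least 5 TPM most correlated with each member were found. Of these, the closest and those shared by AKR1C genes were named. CBR1, PTGS2 and some of the cell type markers fall outside these rules and were chosen after their values were seen. Members and lists were chosen with earlier results of these data known. GENCODE 29 matched 58611 gene identifiers. Promoters are from RefSeq, and were compared with Biopython 1.88. Of the list symbols 1, AKR1C8, was not found.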

Additional observations from a re-analysis of the deposited data

Results flagged for a closer look

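The response to SAHA differed with and without sonidegib, by limma's interaction test, for all 7 aldo-keto reductases. The log2 differences were -1.49 for AKR1C3, -1.38 for AKR1B10, -0.93 for AKR1B1, -0.92 for AKR1C2, -0.80 for AKR1C1, -0.59 for AKR1A1 and 0.33 for AKR7A2 (adjusted p between 6.78e-07 and 0.0267). For AKR1C1, AKR1C2, AKR1C3 and AKR1B10 the SAHA change passed the test in opposite directions, higher without sonidegib and lower with it, in libraries that did not overlap. Over all tested genes 31.8% were higher with SAHA alone and 21.0% were lower with SAHA after sonidegib. The share of genes with both calls, or without overlap, was not counted, so this pattern is not set against all genes. Of all tested genes 31.4% passed the interaction test, and it sets a SAHA difference in libraries with 5S ribosomal RNA against one in libraries without it. The 7 calls held after ribosomal and mitochondrial RNAs were removed. The AKR7A2 call was lost in 6 of 20 alternatives, all of them with a library left out (adjusted p up to 0.0633). The interaction calls of the other members held in all 20.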

How the results depend on the processing

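The 42 member results (7 genes in 6 comparisons) were recomputed under 21 alternatives: another pseudocount (0.1), no filter and a filter at 5 TPM, 3 other scalings, no intensity trend, only the groups compared, the replicate block, and leaving out each library. Of 875 recomputed values 849 kept direction and side of the threshold, 18 lost a call, 7 gained one and 1 changed sign. The change of sign was AKR1B1 in the combination against SAHA, at -0.17 and under quantile normalization at 0.0478, called in neither. The calls of AKR1C1, AKR1C2 and AKR1C3 held in all 6 comparisons under every alternative run, with AKR1C3 between 2.73 and 2.93 for sonidegib and between -1.55 and -1.37 for the interaction.

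Replicate numbers gave no clear pairing of the libraries: same-numbered libraries of different groups had correlations of their deviations between -0.06 and 0.11, and other pairs between -0.11 and 0.10. The highest was between sonidegib replicate 1 and combination replicate 1. With the replicate block more genes were called in all 6 comparisons. The called genes went from 8176 to 8441 for SAHA, from 7712 to 8076 for sonidegib and from 4381 to 4798 for the interaction. With the block AKR1A1 was called in the combination against sonidegib (adjusted p = 0.0484) and AKR1B1 in the combination against SAHA (-0.17, adjusted p = 0.0372). Without SAHA replicate 1 AKR1B1 was also called there (-0.21, adjusted p = 0.0481). The share of higher calls went from 35.3% to 49.6% in the combination against SAHA and from 37.5% to 53.4% in the interaction with median-of-ratios scaling, and to 50.1% and 50.3% with quantile normalization. The depth is unknown, so counting error could not be separated from the spread between libraries.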

Other observations

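The genes whose levels followed the members most closely were found among 9071 protein-coding candidates by Pearson correlation of log2(TPM + 1) over the 12 libraries, which share their groups. They describe likeness of pattern only. FTH1, the ferritin heavy chain that stores iron, was the closest to AKR1C1 (0.986), at 8313 ± 416 TPM in control and 13777 ± 890 with sonidegib. DDB2, a sensor of ultraviolet DNA damage, was the closest to AKR1C3 (0.988), at 15.2 ± 1.03 TPM in control, 20.9 ± 0.849 with SAHA, 38.4 ± 4.12 with sonidegib and 30.7 ± 0.609 in the combination. SUMF2 was the closest to AKR1C2 (0.987), and the autophagy kinase ULK1 was among the 4 closest to both AKR1C1 and AKR1C3 (0.984 and 0.988). AC007325.2 was among the 4 closest to all 3 AKR1C genes (0.986 with each). DDB2 and SUMF2 were each among the 4 closest to both AKR1C2 and AKR1C3. MAPK3, the kinase ERK1, was the closest to AKR1B1 (0.992), the phosphatase DUSP14 to AKR1A1 (0.981), the stress keratin KRT16 to AKR1B10 (0.943) and LAGE3 to AKR7A2 (0.957). KRT16 had the pattern of AKR1B10, with 60.6 ± 2.08 TPM in control, 81.6 ± 7.49 with SAHA, 124 ± 4.7 with sonidegib and 48.6 ± 3.46 in the combination. Within the members, AKR7A2 ran opposite to the AKR1C genes (correlations of -0.93 with each), while AKR1A1 had a correlation of 0.03 with AKR1C1 and 0.84 with AKR1B1.

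The retinoid genes, whose substrate retinal AKR1B10 reduces, held calls in both directions. Of 17 tested, SAHA raised 6 and lowered 9 (median -0.31), and sonidegib raised 5 and lowered 5 (median 0.07). Over all tested genes 31.8% rose and 26.9% fell with SAHA, and 26.1% rose and 29.2% fell with sonidegib, so the sonidegib count of 10 of 17 is near the 55.3% called in all. DHRS3, which reduces retinal, fell by 1.73 with SAHA, and RDH10, which makes retinal, fell by 0.97 with SAHA and by 1.57 in the combination. RDH13 fell by 1.81 with sonidegib. ALDH1A1, which oxidises retinal, rose with SAHA (0.81) and sonidegib (0.93), and the binding protein CRABP1 rose by 1.24 with sonidegib.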
